A study of Mus musculus with 24 samples.

Results

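The comparison described here is whether an antibody to JAML was followed by a different change in CD8 T cells than in regulatory T (Treg) cells of the same kind of tumour. It uses 16 of the 24 bulk RNA libraries of the series, chosen by their labels alone: CD8 T cells after anti-JAML (4 libraries) and after isotype control antibody (4), and CD4+FOXP3+ Treg cells after anti-JAML (4) and after isotype (4). All mice bore tumours of B16F10-OVA, melanoma cells engineered to make the model antigen ovalbumin, and received 200 micrograms of antibody; tumours were taken 1 day later, and the sorted cells, fewer than 400 per library, were lysed for Smart-seq2, a full-length method for polyadenylated RNA. The 8 anti-PD-1 libraries entered only 1 alternative fit. The labels give no age, sex or strain of the mice, nor whether each library came from its own mouse; the p-values therefore rest on library-to-library spread, some of which may be technical.

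JAML, the junctional adhesion molecule-like protein, is a surface receptor that binds the coxsackie and adenovirus receptor CXADR, and in T cells this contact can act as a costimulatory signal. CD8 T cells kill target cells with granzymes and perforin and pass through naive, memory, effector and exhausted states, whereas Treg cells, defined by the transcription factor FOXP3, restrain other T cells inside tumours. An effect confined to one of these populations, an effect shared by both and an effect of opposite sign in each are therefore separate outcomes, and the difference of the log2 fold changes (the CD8 change minus the Treg change, called the interaction) tells the unequal ones from the shared ones.

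Total counts lay between 11170918 and 22556460 per library. Of the genes that define the sorts, Cd8a had 0 counts in all 8 Treg libraries, and Cd4 and Foxp3 had 0 counts in all 8 CD8 libraries. Cd8b1, the other CD8 chain, was read in Treg cells at 25.2 to 40.3 CPM after anti-JAML and 12.8 to 48.1 CPM after isotype. The number of genes detected averaged 14061.5 ± 550 in CD8 anti-JAML and 14094.8 ± 210 in CD8 isotype libraries, and 14371.5 ± 719 in Treg anti-JAML and 13264.5 ± 763 in Treg isotype libraries (SD, n = 4 each); the difference of these differences was -1140.25 genes (two-sided exact permutation p = 0.108). Within Treg cells alone, anti-JAML libraries had 1107 more genes detected on average (two-sided exact permutation p = 0.0571). Mitochondrially encoded genes took 6.89% of CD8 anti-JAML library 4, against 2.44% to 3.54% in the other 3 of its group. CD8 anti-JAML library 2 held 416 CPM (counts scaled to a common library total) of the macrophage gene Lyz2. Because these are bulk samples, fewer cells of a type and less RNA per cell cannot be told apart.

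The promoter windows of 5 genes are shown as examples that hold the letters searched for, and they do not stand for their groups. Btg1 and Ypel3 come from the genes whose change was more positive in CD8 cells. Ube2c and Cdk1 come from the cell division genes, and Ifit3b from the interferon response. Each window runs from 250 bases before to 50 bases after a gene's start in RefSeq, build GRCm38.p6, written 5′ to 3′ on the gene's strand. Capitals mark the letters found by a search of both strands, the reverse complement included: GTAAACA, the core bound by FOXO factors, in Btg1 (chr10:96616751-96617050, plus strand) and Ypel3 (chr7:126776713-126777012, plus strand); TTTGAA, the cell cycle genes homology region (CHR) of genes used in late cell division, in Ube2c (chr2:164769679-164769978, plus strand) and Cdk1 (chr10:69352863-69353162, minus strand); and the interferon-stimulated response element (GAAA, any 2 bases, GAAA) in Ifit3b (chr19:34607707-34608006, plus strand). The CHR letters can share bases with that element.
Btg1: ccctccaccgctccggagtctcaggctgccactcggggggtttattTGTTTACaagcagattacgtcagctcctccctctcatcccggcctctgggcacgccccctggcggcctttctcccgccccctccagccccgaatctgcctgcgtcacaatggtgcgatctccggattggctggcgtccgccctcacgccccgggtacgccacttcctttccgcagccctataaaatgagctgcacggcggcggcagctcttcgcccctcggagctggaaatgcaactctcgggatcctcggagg
Ypel3: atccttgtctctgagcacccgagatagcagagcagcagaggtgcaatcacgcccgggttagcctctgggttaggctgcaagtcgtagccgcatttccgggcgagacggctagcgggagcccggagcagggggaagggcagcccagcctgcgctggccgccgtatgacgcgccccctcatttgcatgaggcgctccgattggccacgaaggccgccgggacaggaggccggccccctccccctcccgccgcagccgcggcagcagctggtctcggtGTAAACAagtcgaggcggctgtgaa
Ube2c: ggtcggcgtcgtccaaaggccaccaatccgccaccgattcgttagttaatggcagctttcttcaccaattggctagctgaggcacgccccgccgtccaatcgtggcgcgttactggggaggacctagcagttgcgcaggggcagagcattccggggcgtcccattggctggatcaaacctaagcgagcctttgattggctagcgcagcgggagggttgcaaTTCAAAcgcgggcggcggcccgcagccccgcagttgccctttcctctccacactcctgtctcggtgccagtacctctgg
Cdk1: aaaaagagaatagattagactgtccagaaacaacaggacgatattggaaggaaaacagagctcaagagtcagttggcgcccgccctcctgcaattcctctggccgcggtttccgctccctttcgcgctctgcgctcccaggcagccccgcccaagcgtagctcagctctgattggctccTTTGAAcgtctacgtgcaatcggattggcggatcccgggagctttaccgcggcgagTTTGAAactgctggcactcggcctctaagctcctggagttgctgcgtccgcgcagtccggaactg
Ifit3b: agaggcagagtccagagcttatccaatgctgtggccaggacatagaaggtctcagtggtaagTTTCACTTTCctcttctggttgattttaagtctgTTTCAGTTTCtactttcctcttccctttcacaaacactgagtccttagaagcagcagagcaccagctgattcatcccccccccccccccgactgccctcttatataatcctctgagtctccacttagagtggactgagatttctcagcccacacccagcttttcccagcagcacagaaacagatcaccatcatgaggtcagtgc

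Of all 27025 genes with a promoter window, 4.05% held GTAAACA, 20.2% held TTTGAA and 3.99% held the interferon-stimulated response element. TTTGAA was held by 14 of the 26 proliferation genes with a window (53.8%), Ube2c, Cdk1, Plk1, Top2a and Mki67 among them, and by 6 of 15 naive, memory and stem-like genes (40%) and 5 of 18 interferon gamma genes (27.8%). The interferon-stimulated response element was held by 12 of 19 type I interferon genes (63.2%) and 9 of 18 interferon gamma genes (50%). GTAAACA was held by 2 of the 7 genes with a window among the 10 whose interaction was most positive, Btg1 and Ypel3. It was also held by 1 of 15 naive, memory and stem-like genes, Tcf7. Gab3, Abcg1, S1pr1 and Tpx2 had no window. A match of letters is a description and not a binding site.

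The single gene that passed the test of unequal change was Samd3, which encodes a protein with a sterile alpha motif domain (mm10 chromosome 10, 26229707 to 26272172, plus strand). Samd3 had 66.8, 62.0, 44.7 and 106 CPM in the CD8 anti-JAML libraries, against 11.1, 16.1, 11.9 and 27.5 CPM in the CD8 isotype libraries. It had 2.74, 3.17, 2.56 and 3.60 CPM in the Treg anti-JAML libraries, against 0 in each of the 4 Treg isotype libraries. Samd3 was thus higher after anti-JAML in every library of both populations, with no overlap between the groups, and its level in anti-JAML Treg cells stood at 4.31% of that in anti-JAML CD8 cells.

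In CD8 cells the log2 fold change of Samd3 was 2.07 ± 0.42 (SE; adjusted p = 0.168 in edgeR's quasi-likelihood test), a ratio of group means of 4.20. In Treg cells 206 counts stood against 0, which is at least 72.2-fold higher when the isotype group is set to a floor of 3 counts over its 4 libraries (adjusted p = 0.000203). The Treg ratio was therefore at least 17.2 times the CD8 ratio, and the interaction was lower in CD8 (adjusted p = 0.0403); the fitted log2 value depends on the prior count and is no bound. Averaged over both populations Samd3 was also the only gene called (adjusted p = 9.54e-05). DESeq2 called its interaction (adjusted p = 9.99e-05), while the call was lost in 19 of 24 alternative settings, with adjusted p between 9.99e-05 and 0.444 over all of them.

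Of 13466 genes tested, 1 (0.00743%) was called in the interaction at an adjusted p under 0.05 and 857 (6.36%) had an unadjusted p under 0.05, of which 440 (3.27%) were higher and 417 (3.10%) lower in CD8. For anti-JAML against isotype in CD8 cells 0 genes (0.00%) were called and 1281 (9.51%) had an unadjusted p under 0.05, 5.20% of all genes higher and 4.31% lower; limma voom called 2 and DESeq2 208. For the same comparison in Treg cells 1 gene (0.00743%) was called and 792 (5.88%) had an unadjusted p under 0.05, 4.13% of all genes higher and 1.75% lower. The mean of both effects gave 1 call (0.00743%), with 828 genes (6.15%) higher and 520 (3.86%) lower at an unadjusted p under 0.05. CD8 groups did not overlap in 8.32% of genes (2.85% higher and 5.47% lower after anti-JAML), and Treg groups in 2.64% (1.57% higher and 1.07% lower). With so few libraries per group, some genes would have groups apart with no effect of the antibody. That share was not worked out, so a lack of overlap is a description here and below. Genes other than Samd3 are therefore given below by their values and unadjusted classes. With all 16 libraries none of them was a call of edgeR. Calls of edgeR with other sets of libraries are named beside some of the genes. DESeq2 called 156 genes in the interaction, of which 114 had a group with 0 counts. DESeq2 interaction calls among the genes below included Slfn2, Il6st, Cxcr3, Ypel3, Fam49a, Rit1, Trbc1, Crtam, Kif2c, Haus2, Tpx2, Tpi1, Gapdh, Klrd1, Serpine2 and Hbb-bs. Its mean-effect calls included Efr3a, Bcl2l13, Pnpla7, Slc2a3, Pcnx4, Ssu72 and Spp1.

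Some of the genes with an unadjusted p under 0.05 fell into 4 classes. The other 12683 genes tested were in no class, including those with such a p in only 1 population and not in the interaction. In the class of one population alone, 413 genes (3.07%) had an unadjusted p under 0.05 in CD8 cells and in the interaction but not in Treg cells, 288 of them higher (2.14%) and 125 lower (0.928%) after anti-JAML. The Treg counterpart held 296 genes (2.20%), 211 higher (1.57%) and 85 lower (0.631%), of which 171 had a group with 0 counts. A further 45 genes (0.334%) had an unadjusted p under 0.05 in both populations with the same sign, 30 higher (0.223%) and 15 lower (0.111%). Opposite signs were found in 29 (0.215%), 10 higher (0.0743%) and 19 lower (0.141%) in CD8. An unadjusted p under 0.05 was met by 9.51% of all genes in CD8 cells and 5.88% in Treg cells. Some genes would therefore enter the classes of same and opposite sign with no link between the populations. How many was not worked out, so the sizes of these classes are a description. Across all genes tested, the 2 changes shared a sign in 7627 (56.64%) and correlated with r = 0.0364, a description across genes, which are not independent replicates.

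**Figure D1:**
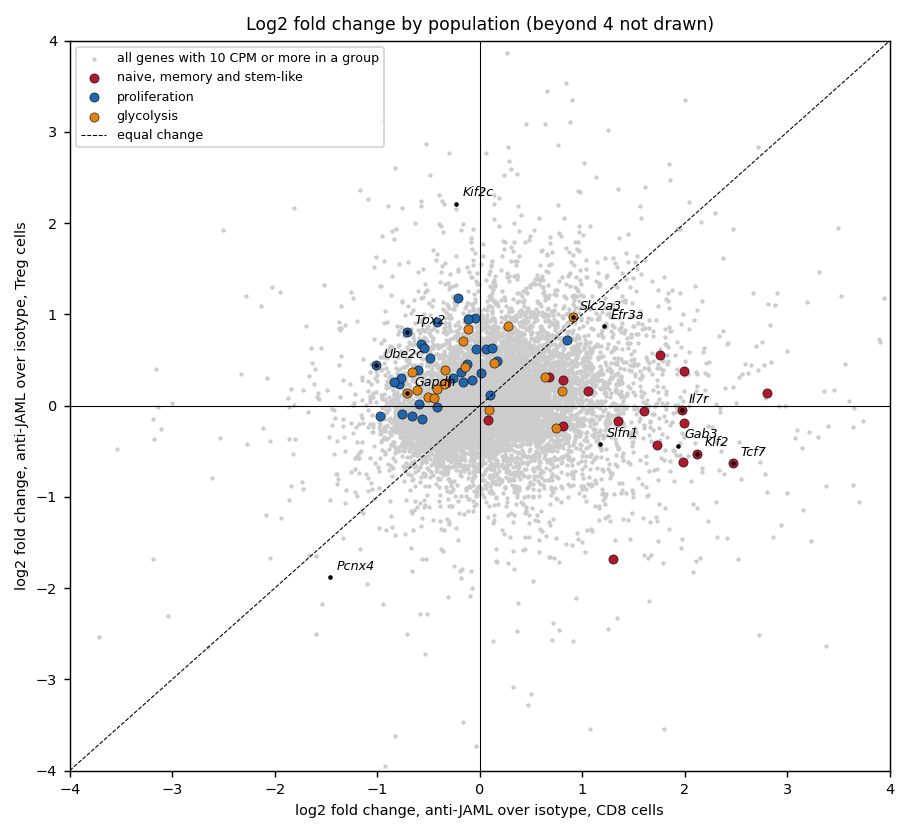
Each point is a gene with a mean of at least 10 CPM in 1 or more groups; the x axis is the log2 fold change of anti-JAML over isotype in CD8 cells and the y axis the same in Treg cells, with coloured points for 3 gene lists and a dashed line of equal change. Naive, memory and stem-like genes lie to the right near the horizontal axis, and proliferation genes lie mostly above and to the left of the dashed line.

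The gene lists below were chosen with earlier results of these data known. Their shares, set beside those of all genes, are therefore a description and no test. Naive, memory and stem-like genes had the most positive interaction of the T-cell lists. Of 18 members tested, 11 had an unadjusted p under 0.05 in the interaction and 0 were lower, against 440 of all 13466 genes (3.27%). Their median log2 fold change was 1.66 in CD8 cells and -0.11 in Treg cells, with a median interaction of 1.63, against -0.00 over all genes tested. Tcf7, a transcription factor of self-renewing T cells, had 92.9, 375, 97.7 and 228 CPM in the CD8 anti-JAML libraries, against 17.0, 19.5, 49.5 and 57.1 CPM in the CD8 isotype libraries. In Treg cells Tcf7 had 27.9, 33.1, 11.2 and 12.03 CPM after anti-JAML, against 11.96, 44.5, 41.2 and 32.5 CPM after isotype. The CD8 groups did not overlap and the Treg groups did. The interaction of Tcf7 was 3.10 ± 0.78 (SE; adjusted p = 0.506).

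Klf2 and S1pr1 belong to the programme that lets T cells leave tissue. Klf2, a transcription factor that drives S1pr1, had 61.2, 222, 61.1 and 75.4 CPM in CD8 anti-JAML libraries, against 18.7, 9.70, 43.7 and 24.5 CPM in CD8 isotype libraries. Klf2 in Treg cells lay at 29.5, 29.3, 18.3 and 13.9 CPM after anti-JAML, against 37.8, 41.4, 24.2 and 27.7 CPM after isotype. The CD8 groups were apart, with library 2 far above the rest, and the interaction was 2.65 ± 0.68 (SE; adjusted p = 0.519). S1pr1, the receptor for the egress signal sphingosine 1-phosphate, averaged 228 ± 132 CPM in CD8 anti-JAML and 57.1 ± 36.2 CPM in CD8 isotype libraries, and 168 ± 86.8 CPM in Treg anti-JAML and 191 ± 62.2 CPM in Treg isotype libraries (SD, n = 4 each). Its interaction was 2.18 ± 0.65 (SE; adjusted p = 0.594).

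Il7r, the receptor chain for the survival cytokine IL-7, had 219, 274, 125 and 179.8 CPM in CD8 anti-JAML libraries, against 19.3, 28.3, 78.8 and 77.0 CPM in CD8 isotype libraries. The CD8 groups were apart. Il7r in Treg cells had 160.2, 237, 138 and 126 CPM after anti-JAML, against 139.8, 263, 139 and 142 CPM after isotype, which overlap closely. Its interaction was 2.02 ± 0.56 (SE; adjusted p = 0.564). The members with a negative or small interaction were Ly6c2 (-0.57 ± 0.67), a surface marker of memory cells, and Cd27 (0.24 ± 0.22), a costimulatory receptor.

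Library 2 of CD8 anti-JAML carried part of this. Without it the median interaction of the list was 0.90 and 6 members had an unadjusted p under 0.05; without CD8 anti-JAML libraries 2 and 4 the values were 1.01 and 6, and without CD8 isotype library 1 or 2 the count was 7. That library also had the highest summed level of the 12 macrophage and monocyte markers of its group, which lay between 20.4 and 451.9 CPM in CD8 anti-JAML and between 16.8 and 54.3 CPM in CD8 isotype libraries, and between 10.4 and 92.2 CPM in Treg anti-JAML and between 20.1 and 100.9 CPM in Treg isotype libraries. Of those markers 7 of 12 were tested and 0 had an unadjusted p under 0.05 in the interaction. Their part in the list's values was not tested.

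**Figure D2:**
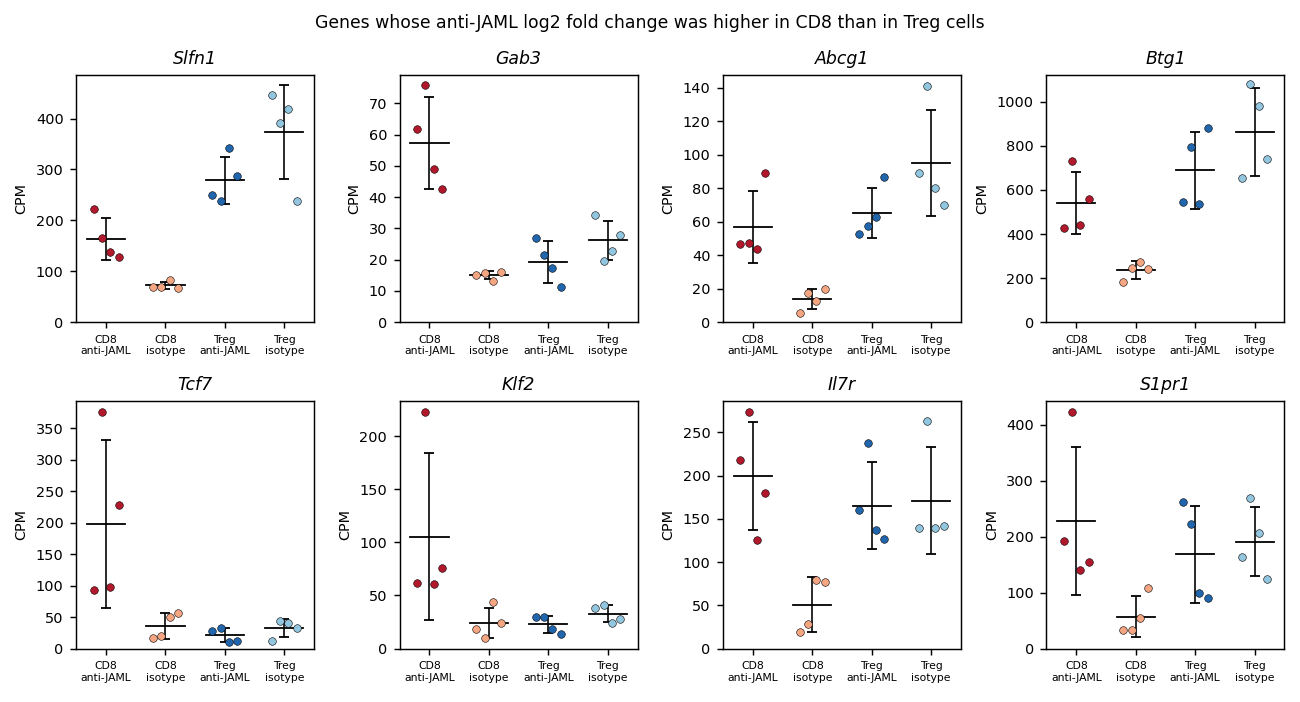
Levels in CPM (y axis, from 0) of 8 genes in each of the 16 libraries by group (x axis); points are libraries 1 to 4 from left to right, the line is the mean and the bar the SD. In all 8 genes the CD8 anti-JAML libraries lie above the CD8 isotype libraries, and the Treg groups overlap.

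Outside that list, the genes with the smallest interaction p and a positive sign were led by Slfn1, then Gab3 and Abcg1. Slfn1 and Slfn2 are Schlafen genes, a family that in mice restrains T-cell growth. Slfn1 (chromosome 11, 83116849 to 83122670) had 222, 165, 139 and 128 CPM in CD8 anti-JAML libraries, against 69.9, 69.4, 82.9 and 68.1 CPM in CD8 isotype libraries. Slfn1 in Treg cells had 251, 237, 341 and 287 CPM after anti-JAML, against 446, 391, 419 and 238 CPM after isotype. The CD8 groups did not overlap, while 3 of the 4 Treg isotype libraries lay above all 4 Treg anti-JAML libraries. The interaction was 1.59 ± 0.30 (SE; adjusted p = 0.221 in edgeR, and 0.016 without Treg isotype library 4). Slfn2, a paralog on the same chromosome (83065112 to 83070678) with which reads may be shared, averaged 328 ± 71.3 CPM in CD8 anti-JAML and 189 ± 18.8 CPM in CD8 isotype libraries, and 559 ± 37.4 CPM in Treg anti-JAML and 665 ± 90.6 CPM in Treg isotype libraries (SD, n = 4 each); its interaction was 1.04 ± 0.23 (SE; adjusted p = 0.339).

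Gab3, a scaffold protein of cytokine receptor signalling (chromosome X, 74966843 to 75085458, minus strand), had 61.9, 76.0, 48.9 and 42.6 CPM in CD8 anti-JAML libraries, against 15.2, 15.8, 13.2 and 15.9 CPM in CD8 isotype libraries. In Treg cells it had 26.9, 21.6, 17.5 and 11.2 CPM after anti-JAML, against 34.3, 19.7, 23.0 and 27.8 CPM after isotype. Every CD8 anti-JAML library was above every CD8 isotype library, and the interaction was 2.37 ± 0.45 (SE; adjusted p = 0.221). Abcg1, a cholesterol exporter (chromosome 17, 31057675 to 31117988), had 47.1, 47.1, 44.0 and 89.4 CPM in CD8 anti-JAML libraries, against 5.72, 17.6, 12.4 and 19.8 CPM in CD8 isotype libraries. Abcg1 in Treg cells had 52.9, 57.7, 62.9 and 86.6 CPM after anti-JAML, against 89.0, 141, 80.1 and 69.9 CPM after isotype, so the CD8 groups were apart and the Treg groups overlapped. Its interaction was 2.58 ± 0.51 (SE; adjusted p = 0.221).

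Btg1, an antiproliferative gene that helps keep T cells quiescent, averaged 541 ± 141 CPM in CD8 anti-JAML and 236 ± 39.8 CPM in CD8 isotype libraries, and 689 ± 175 CPM in Treg anti-JAML and 863 ± 199 CPM in Treg isotype libraries (SD, n = 4 each). The interaction of Btg1 was 1.52 ± 0.32 (SE; adjusted p = 0.288). Il6st, the signalling chain of the IL-6 receptor family, had an interaction of 2.88 ± 0.73, with 25.7 ± 15.4 CPM in CD8 anti-JAML and 6.15 ± 2.85 CPM in CD8 isotype libraries, and 25.0 ± 5.03 CPM in Treg anti-JAML and 44.2 ± 26.4 CPM in Treg isotype libraries. In Gab3, Abcg1, Slfn1, Btg1, Tcf7, Klf2, Il7r and S1pr1 DESeq2 called the interaction, and the sign was positive in all 24 alternatives.

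Proliferation genes showed the reverse order. Of 31 tested, 0 were higher and 11 were lower in CD8 with an unadjusted p under 0.05 in the interaction, against 3.10% of all genes lower. The median log2 fold change was -0.42 in CD8 cells and 0.39 in Treg cells, with a median interaction of -0.66; in CD8 cells 10 had an unadjusted p under 0.05 and were lower (4.31% of all genes), and in Treg cells 7 had one and were higher (4.13% of all genes). Tpx2, a spindle assembly factor (chromosome 2, 152847964 to 152895321), had 67.7, 74.8, 60.6 and 74.1 CPM in CD8 anti-JAML libraries, against 118, 125, 116 and 93.1 CPM in CD8 isotype libraries. Tpx2 in Treg cells had 85.2, 54.0, 59.6 and 48.1 CPM after anti-JAML, against 50.6, 23.7, 24.5 and 41.8 CPM after isotype. All 4 CD8 anti-JAML libraries were below all CD8 isotype libraries, and 3 of the 4 Treg anti-JAML libraries were above all Treg isotype libraries. Its log2 fold change was -0.71 ± 0.26 in CD8 cells and 0.81 ± 0.26 in Treg cells, an interaction of -1.52 ± 0.37 (SE; adjusted p = 0.458).

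Tpx2 was past an unadjusted p of 0.05 in both populations. In CD8 cells the 10 included Ube2c, a ubiquitin-conjugating enzyme of mitotic exit, with 239 ± 104 CPM in CD8 anti-JAML and 483 ± 59.1 CPM in CD8 isotype libraries, against 182 ± 36.4 CPM in Treg anti-JAML and 134 ± 48.1 CPM in Treg isotype libraries (SD, n = 4 each). Cdk1, the mitotic kinase, and Ccnb1 and Ccnb2, its cyclin B partners, were among the 10 that were lower in CD8 anti-JAML libraries. In Treg cells the 7 were Mcm3, Mcm6 and Mcm7 of the replicative helicase, Rrm1 of ribonucleotide reductase, and Bub1, Cdc20 and Tpx2 of the spindle and its checkpoint. Mki67, the usual marker of cycling cells, had an interaction of -0.58 ± 0.48. Without CD8 isotype library 2 the count of 11 was 6, without Treg isotype library 2 or CD8 anti-JAML library 4 it was 7, as it was without CD8 anti-JAML libraries 2 and 4 and with a covariate for genes detected.

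Kif2c, a microtubule-depolymerising kinesin of the spindle that is not on that list (chromosome 4, 117159639 to 117182639, minus strand), had the smallest p among genes with a negative interaction after Samd3. It had 35.8, 44.2, 27.3 and 44.0 CPM in CD8 anti-JAML libraries, against 42.2, 47.6, 36.4 and 51.9 CPM in CD8 isotype libraries. In Treg cells Kif2c had 47.1, 14.7, 34.1 and 34.5 CPM after anti-JAML, against 9.84, 6.39, 4.94 and 6.87 CPM after isotype. The CD8 groups overlapped and the Treg groups did not, and the Treg anti-JAML libraries other than library 2 lay near the CD8 range. Its log2 fold change in Treg cells was 2.21 ± 0.36 (SE; adjusted p = 0.0806 in edgeR, 0.00915 without Treg anti-JAML library 2 and 0.0192 in a fit with all 24 libraries) and its interaction -2.45 ± 0.49 (adjusted p = 0.221). Haus2, a subunit of the augmin complex that builds the spindle, averaged 34.9 ± 19.6 CPM in CD8 anti-JAML and 54.1 ± 11.5 CPM in CD8 isotype libraries, and 57.9 ± 27.5 CPM in Treg anti-JAML and 14.4 ± 3.75 CPM in Treg isotype libraries (SD, n = 4 each). The interaction of Haus2 was -2.64 ± 0.63 (SE; adjusted p = 0.458).

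Of 18 glycolysis genes tested, 8 had an unadjusted p under 0.05 in the interaction and were negative, against 3.10% of all genes, and 4 of the 18 had a positive interaction (Hk2, Pdk1, Pfkfb3 and Pfkl); with genes detected as a covariate the count was 3. The median log2 fold change was -0.16 in CD8 cells and 0.27 in Treg cells, and the median interaction -0.59. Gapdh had 2576, 1660.1, 2429 and 1656 CPM in CD8 anti-JAML libraries, against 3548, 3477, 3271 and 3326 CPM in CD8 isotype libraries. Gapdh in Treg cells had 3322, 3078, 2519.8 and 3072 CPM after anti-JAML, against 3220.4, 2413, 2773 and 2524 CPM after isotype. The CD8 groups were apart and the Treg groups overlapped, with an interaction of -0.84 ± 0.23 (SE; adjusted p = 0.564). Tpi1, triosephosphate isomerase, averaged 970.1 ± 232 CPM in CD8 anti-JAML and 1537 ± 76.2 CPM in CD8 isotype libraries, and 1289.9 ± 203 CPM in Treg anti-JAML and 998 ± 199.9 CPM in Treg isotype libraries (SD, n = 4 each). The interaction of Tpi1 was -1.03 ± 0.27 (SE; adjusted p = 0.529). Both genes have processed copies elsewhere in the genome, so their counts are uncertain to that extent.

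**Figure D3:**
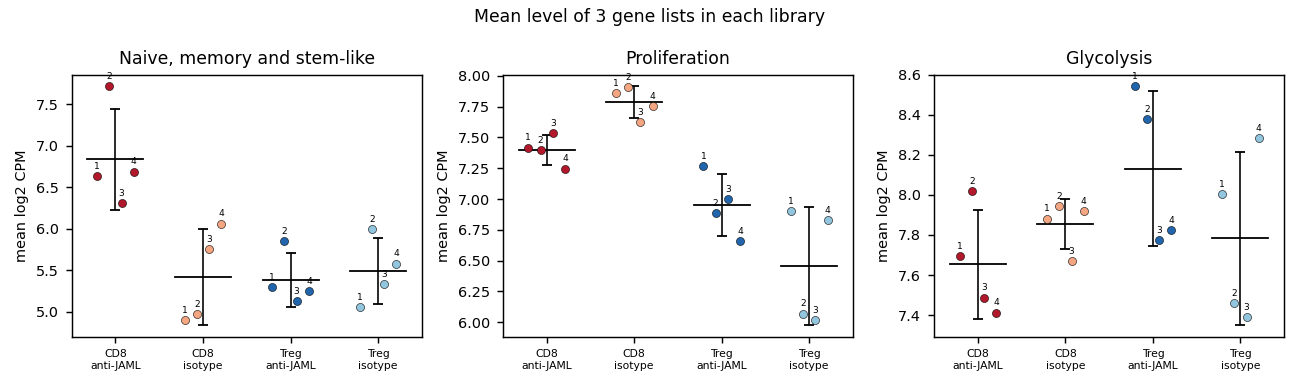
Mean log2 CPM (y axis, not from 0) over the members of 3 gene lists in each library, by group (x axis); the numbers are library numbers, the line is the mean and the bar the SD. CD8 anti-JAML libraries lie above CD8 isotype libraries for naive, memory and stem-like genes and below them for proliferation genes.

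The score of each list, its mean log2 CPM in a library, shows the spread behind these medians. For naive, memory and stem-like genes it was 6.84 ± 0.61 in CD8 anti-JAML and 5.42 ± 0.58 in CD8 isotype libraries, and 5.38 ± 0.32 in Treg anti-JAML and 5.49 ± 0.40 in Treg isotype libraries (SD, n = 4 each). For proliferation genes it was 7.40 ± 0.12 in CD8 anti-JAML and 7.79 ± 0.13 in CD8 isotype libraries, and 6.95 ± 0.25 in Treg anti-JAML and 6.46 ± 0.48 in Treg isotype libraries. Treg isotype libraries 2 and 3 had the lowest proliferation scores of all 16, 6.07 and 6.02. Glycolysis scores overlapped between the antibodies in both populations, at 7.65 ± 0.27 in CD8 anti-JAML and 7.85 ± 0.12 in CD8 isotype libraries, and 8.13 ± 0.39 in Treg anti-JAML and 7.78 ± 0.43 in Treg isotype libraries.

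Of 27 type I interferon genes, 5 had an unadjusted p under 0.05 in the interaction, all positive, against 3.27% of all genes higher (Ifit1, Ifit3, Ifit3b, Irf9 and Trim30a), with a median interaction of 0.66. Ifit3b, whose promoter is shown above, had 27.2, 7.41, 10.5 and 42.1 CPM in CD8 anti-JAML libraries, against 1.91, 6.77, 5.72 and 2.69 CPM in CD8 isotype libraries. Ifit3b in Treg cells had 50.8, 17.3, 22.01 and 12.4 CPM after anti-JAML, against 28.7, 54.0, 45.4 and 16.1 CPM after isotype. The CD8 groups did not overlap, narrowly, and the interaction was 2.84 ± 0.88 (SE; adjusted p = 0.594). Of 26 interferon gamma genes 5 were positive with an unadjusted p under 0.05, Gbp4, Gbp6, Gbp8, Iigp1 and Irgm2, members of the guanylate-binding and immunity-related GTPase families that share sequence among themselves; the list's median interaction was 0.39, and 0.18 without CD8 anti-JAML library 2 and 0.19 without Treg isotype library 4. The count of 5 type I genes was 2 without Treg isotype library 2 and 3 without any 1 of 5 other libraries (Treg isotype 3, Treg anti-JAML 2 or 4, CD8 isotype 3, CD8 anti-JAML 1), and 8 without CD8 anti-JAML library 4.

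Early T-cell receptor response genes had a median interaction of 0.51. Of 21 tested, 4 were positive at an unadjusted p under 0.05 and 0 negative, against 3.27% and 3.10% of all genes. Cd69, an early activation marker that also holds T cells in tissue, had 375, 391, 287 and 356 CPM in CD8 anti-JAML libraries, against 229, 155, 230.1 and 278 CPM in CD8 isotype libraries. Cd69 in Treg cells had 198, 257, 239 and 223 CPM after anti-JAML, against 425, 403, 176 and 262 CPM after isotype. The CD8 groups were apart and the Treg groups overlapped, and the interaction was 1.13 ± 0.34 (SE; adjusted p = 0.594). Egr1, an immediate early transcription factor, had an interaction of 1.45 ± 0.48 with overlapping CD8 groups. Without CD8 anti-JAML libraries 2 and 4 the count of 4 was 2 and the median 0.22, and without Treg isotype library 4 the median was 0.32.

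Of 20 trafficking receptors tested, 7 were positive and 1 negative in the interaction at an unadjusted p under 0.05. Over all genes the shares were 3.27% and 3.10%. The list's median interaction was 0.60, and the 7 included Ccr7 and S1pr1 of the naive list. Cxcr3, the receptor for interferon-induced chemokines, averaged 206 ± 53.0 CPM in CD8 anti-JAML and 115 ± 6.46 CPM in CD8 isotype libraries, and 661 ± 40.0 CPM in Treg anti-JAML and 730.4 ± 139.7 CPM in Treg isotype libraries (SD, n = 4 each), an interaction of 0.98 ± 0.26 (SE; adjusted p = 0.529). Without CD8 anti-JAML libraries 2 and 4 the median was 0.18. The count of 7 was 3 without Treg anti-JAML library 3, and 4 without Treg isotype library 2, Treg anti-JAML library 4, CD8 isotype library 4 or CD8 anti-JAML library 1. Of 21 NF-kB genes 4 were positive and 1 negative at an unadjusted p under 0.05, against the same 3.27% and 3.10%. The count of 4 was 0 without CD8 anti-JAML libraries 2 and 4, and 1 without Treg isotype library 4 or CD8 anti-JAML library 4. It was 2 without Treg anti-JAML library 3 or 4 or CD8 isotype library 1.

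Effector and cytotoxicity genes did not lean one way: the median interaction of 21 tested was 0.11, and its sign differed in 8 of 24 alternatives. Yet 4 members were negative with an unadjusted p under 0.05 and 0 positive, against 3.10% and 3.27% of all genes. Gzmb and Prdm1 had an unadjusted p under 0.05 in CD8 cells, and Gzma and Prf1 in Treg cells. Gzmb, the main granzyme, had 1655, 459, 1174 and 754 CPM in CD8 anti-JAML libraries, against 2559, 2320.5, 1474 and 1301 CPM in CD8 isotype libraries, and averaged 608 ± 121 CPM in Treg anti-JAML and 584 ± 106 CPM in Treg isotype libraries (SD, n = 4 each). Its CD8 groups overlapped, and its interaction was -0.98 ± 0.45 (SE; adjusted p = 0.782). Prdm1, which encodes the effector transcription factor BLIMP1, had 27.4 ± 14.2 CPM in CD8 anti-JAML and 60.7 ± 10.2 CPM in CD8 isotype libraries, and 147 ± 44.7 CPM in Treg anti-JAML and 118 ± 14.9 CPM in Treg isotype libraries, an interaction of -1.46 ± 0.47. Gzma, another granzyme, had 2.74, 4.32, 4.70 and 14.9 CPM in Treg anti-JAML libraries, against 0, 0, 0 and 1.91 CPM in Treg isotype libraries, while CD8 levels were 36.4, 42.7, 60.1 and 68.9 CPM after anti-JAML, against 40.3, 62.5, 31.0 and 39.2 CPM after isotype. The interaction of Gzma was -3.60 ± 1.42 (SE; adjusted p = 0.746 in edgeR, and 0.00694 without Treg isotype library 4, the sole one of its group with a count). The count of 4 was 1 without Treg anti-JAML library 4, and 2 without CD8 isotype library 1 or 2 or CD8 anti-JAML library 2 or 4; without CD8 anti-JAML libraries 2 and 4 the list had 5 positive and 1 negative.

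Genes seen in Treg cells only after anti-JAML differed in how abundant they were in CD8 cells. Treg isotype libraries 1 to 3 had 13002, 13035 and 12643 genes detected and library 4 had 14378, against 13413 to 15158 in Treg anti-JAML libraries. The part of this in the zeros of the Treg isotype group, those of Samd3 included, was not tested. Klrd1, the NK receptor chain CD94, had 612, 229, 652 and 295 CPM in CD8 anti-JAML libraries and 498, 459.7, 322 and 258 CPM in CD8 isotype libraries, and 0.810, 0, 5.18 and 5.77 CPM in Treg anti-JAML libraries, against 0 in all 4 Treg isotype libraries. Serpine2, a secreted protease inhibitor, had 9.54, 0, 6.85 and 0.496 CPM in Treg anti-JAML libraries, against 0 in all 4 Treg isotype libraries, with 189.7 ± 122 CPM in CD8 anti-JAML and 208 ± 27.7 CPM in CD8 isotype libraries (SD, n = 4 each). Their Treg anti-JAML means were 0.657% (Klrd1) and 2.22% (Serpine2) of the CD8 anti-JAML means. For Ms4a4a, Mef2c and Kcnk5, also at 0 in all 4 Treg isotype libraries, that share was 28%, 20% and 66.4%. The Treg ratios were at least 71.8-fold (Klrd1) and at least 102-fold (Serpine2) higher against the floor of 3 counts. Klrd1 was called by edgeR in Treg cells without Treg anti-JAML library 2 (adjusted p = 0.0105). Crtam ran the other way, with 0 in all 4 Treg anti-JAML libraries against 0, 0.873, 0 and 28.6 CPM in Treg isotype libraries. The summed level of the 8 CD8 lineage markers was 79.4 to 112.1 CPM in Treg anti-JAML and 63.4 to 113.9 CPM in Treg isotype libraries. Of the 8, 1 was higher and 1 lower in Treg cells at an unadjusted p under 0.05, against 4.13% and 1.75% of all genes. Of the 8 NK markers 5 were tested and 1 was higher in Treg cells at an unadjusted p under 0.05 (4.13% of all genes). Their sum was 76.8 to 192.0 CPM in CD8 anti-JAML and 47.3 to 77.4 CPM in CD8 isotype libraries. In Treg cells it was 4.22 to 92.9 CPM after anti-JAML and 2.74 to 101.7 CPM after isotype. Cd8a and Eomes were at 0 in all 8 Treg libraries. The part of these markers in the Treg values was not tested.

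**Figure D4:**
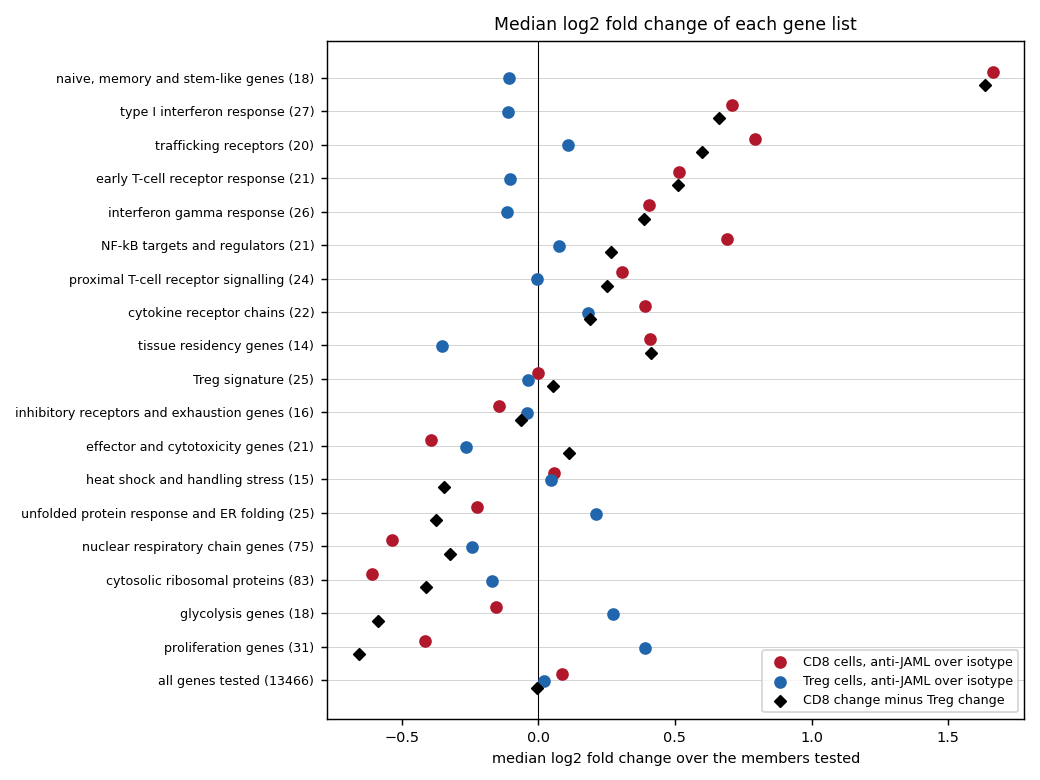
Median log2 fold change (x axis) of the members tested of each gene list (y axis, number tested in brackets) for anti-JAML over isotype in CD8 cells and in Treg cells, and for the CD8 change minus the Treg change. Naive, memory and stem-like genes have a median interaction of 1.63 and proliferation genes of -0.66, against -0.00 over all genes.

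Of 83 cytosolic ribosomal protein genes 35 had an unadjusted p under 0.05 and were lower in CD8 anti-JAML libraries, against 4.31% of all genes. In Treg cells 0 did so (1.75% of all genes), and 1 did so in the interaction (3.10%), whose median was -0.41. Their summed level was 94697, 37535, 90053 and 59005 CPM in CD8 anti-JAML libraries, against 95839 to 111665 CPM in CD8 isotype libraries, so libraries 2 and 4 lay lowest. Without CD8 anti-JAML library 2 that median was -0.18, and without libraries 2 and 4 it was -0.02. Of 75 nuclear respiratory chain genes 25 were lower in CD8 cells and 2 in Treg cells at an unadjusted p under 0.05. Over all genes these shares were 4.31% and 1.75%. Their median interaction was -0.32. It was -0.10 without CD8 anti-JAML library 2, -0.04 without libraries 2 and 4 and -0.18 without Treg anti-JAML library 3. Of 25 unfolded protein response genes 4 were negative in the interaction at an unadjusted p under 0.05, against 3.10% of all genes. The count was 8 without Treg isotype library 4. Among the 4 was Xbp1, a transcription factor of that response. It had 148 ± 22.9 CPM in CD8 anti-JAML and 218 ± 13.1 CPM in CD8 isotype libraries (SD, n = 4 each). In Treg cells it had 276 ± 46.1 CPM after anti-JAML and 260.2 ± 39.5 CPM after isotype (SD, n = 4 each). The interaction of Xbp1 was -0.64 ± 0.24 (SE; adjusted p = 0.71).

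Receptors that mark dysfunction and the Treg programme showed no such lean. Of 16 inhibitory receptor and exhaustion genes 0 had an unadjusted p under 0.05 in the interaction, with a median of -0.06, and Pdcd1, which encodes PD-1, had an interaction of -0.48 ± 0.45 (SE; adjusted p = 1). Of 25 Treg signature genes, 1 had a positive and 1 a negative interaction at an unadjusted p under 0.05. Those shares over all genes were 3.27% and 3.10%. The members were Il1rl1 (positive) and Ccr4 (negative), whose means were under 4 CPM in both CD8 groups. Foxp3 had 178, 116, 75.0 and 116 CPM in Treg anti-JAML libraries, against 60.5, 65.4, 58.2 and 105 CPM in Treg isotype libraries; the groups overlapped, with a log2 fold change of 0.74 ± 0.33 (SE; adjusted p = 0.824). Jaml itself had 23.6, 69.9, 14.5 and 24.4 CPM in CD8 anti-JAML libraries, against 7.71, 7.42, 21.2 and 6.04 CPM in CD8 isotype libraries. In Treg cells Jaml was read in 1 library of each group, at 0.209 CPM after anti-JAML and 0.816 CPM after isotype. The interaction of Jaml was 3.32 ± 1.87 (SE; adjusted p = 0.835) and was -1.38 without Treg isotype library 4, the sole Treg isotype library with a count.

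Genes in the opposite class were few. Ypel3, a gene linked to growth arrest (chromosome 7, 126776955 to 126780514), had 199.9, 214, 174 and 227 CPM in CD8 anti-JAML libraries, against 86.1, 105, 145 and 113 CPM in CD8 isotype libraries. Ypel3 in Treg cells had 294, 418, 363 and 539 CPM after anti-JAML, against 522, 717, 577 and 451 CPM after isotype. The CD8 groups did not overlap, and in Treg cells 3 of 4 anti-JAML libraries lay below all isotype libraries. Its log2 fold change was 0.86 ± 0.21 in CD8 cells and -0.49 ± 0.21 in Treg cells, an interaction of 1.35 ± 0.29 (SE; adjusted p = 0.316).

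Fam49a, a regulator of actin dynamics through RAC1 (chromosome 12, 12262139 to 12380965), had 61.3, 51.5, 66.9 and 95.7 CPM in CD8 anti-JAML libraries, against 28.1, 36.1, 30.4 and 42.3 CPM in CD8 isotype libraries. In Treg cells Fam49a had 23.6, 22.8, 27.2 and 61.4 CPM after anti-JAML, against 63.4, 54.3, 81.7 and 48.8 CPM after isotype. Only Treg anti-JAML library 4 reached the isotype range, and the interaction was 1.89 ± 0.46 (SE; adjusted p = 0.487). Rit1, a small GTPase, had an interaction of 1.13 ± 0.32, and Trbc1, a constant region of the T-cell receptor beta chain whose reads may be shared with its near-identical neighbour Trbc2, one of 1.32 ± 0.36. Nudc, a chaperone of the dynein motor, had a log2 fold change of -0.42 ± 0.18 in CD8 cells and 0.45 ± 0.18 in Treg cells. Groups without overlap in both populations and opposite signs were found for 1 gene in each direction (0.00743% each): Trav4-3, a T-cell receptor variable segment, higher in CD8 and lower in Treg cells, and Poc5, a centriole gene, lower in CD8 and higher in Treg cells; both were chosen after their values were seen.

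**Figure D5:**
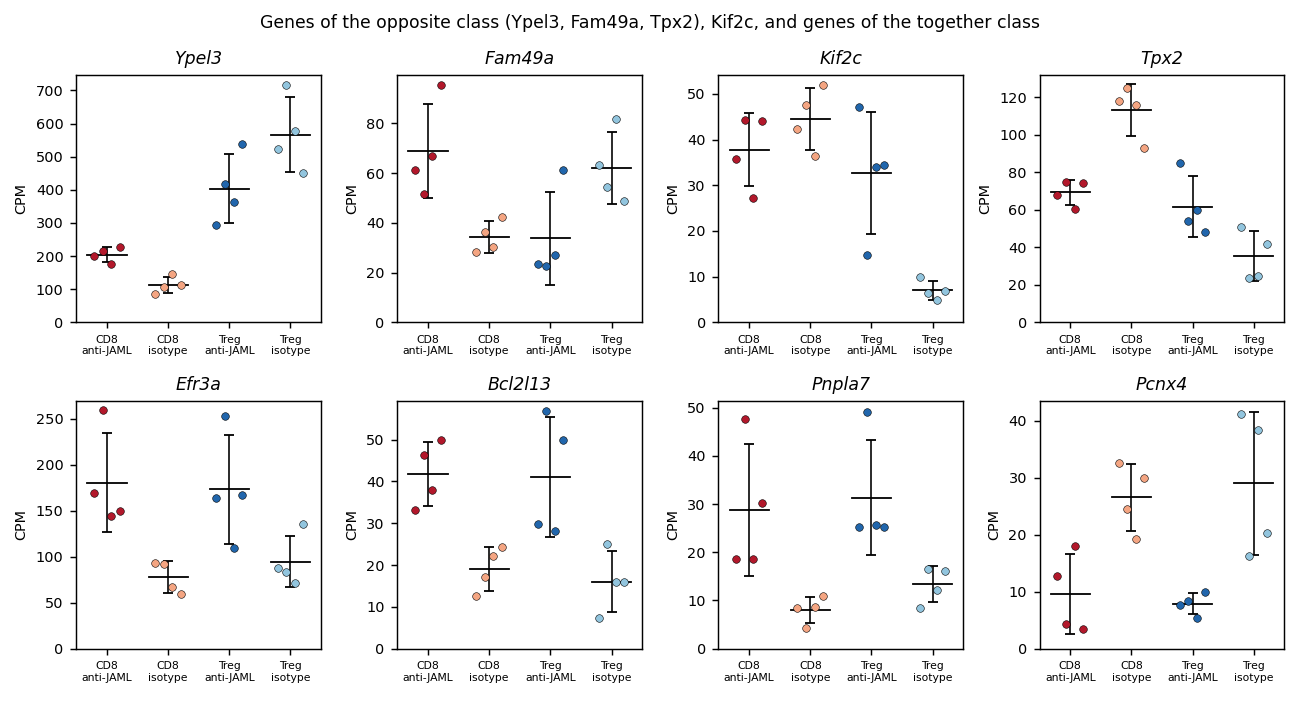
Levels in CPM (y axis, from 0) of 8 genes in each of the 16 libraries by group (x axis), with the mean (line) and SD (bar). Ypel3 and Fam49a are higher in CD8 and lower in Treg anti-JAML libraries and Tpx2 the reverse; Kif2c differs in Treg libraries; Efr3a, Bcl2l13 and Pnpla7 are higher and Pcnx4 lower after anti-JAML in both populations.

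In the class of shared sign, Samd3 had the smallest p of the mean effect, and Efr3a, Pnpla7, Mbnl1 and Bcl2l13 came next. Efr3a, which anchors the phosphatidylinositol 4-kinase complex at the plasma membrane (chromosome 15, 65787034 to 65873816), had 169, 259, 144 and 149 CPM in CD8 anti-JAML libraries, against 92.9, 92.03, 67.3 and 59.5 CPM in CD8 isotype libraries. Efr3a in Treg cells had 163, 252, 109.5 and 166 CPM after anti-JAML, against 87.4, 83.6, 71.7 and 135 CPM after isotype. The mean of both log2 fold changes was 1.04 ± 0.20 (SE; adjusted p = 0.308 in edgeR, and 0.0313 without Treg isotype library 4) and the interaction 0.34 ± 0.39. Bcl2l13, a mitochondrial relative of BCL2, averaged 41.9 ± 7.69 CPM in CD8 anti-JAML and 19.1 ± 5.27 CPM in CD8 isotype libraries, and 41.2 ± 14.4 CPM in Treg anti-JAML and 16.03 ± 7.23 CPM in Treg isotype libraries (SD, n = 4 each), with no overlap in either population. Its mean log2 fold change was 1.25 ± 0.27 (SE; adjusted p = 0.342).

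Pnpla7, a lysophospholipase, had 28.8 ± 13.8 CPM in CD8 anti-JAML and 8.02 ± 2.74 CPM in CD8 isotype libraries, and 31.3 ± 11.9 CPM in Treg anti-JAML and 13.3 ± 3.78 CPM in Treg isotype libraries (SD, n = 4 each), again without overlap. Slc2a3, the glucose transporter GLUT3, averaged 112 ± 46.5 CPM in CD8 anti-JAML and 59.3 ± 12.7 CPM in CD8 isotype libraries, and 114 ± 39.9 CPM in Treg anti-JAML and 57.9 ± 19.7 CPM in Treg isotype libraries, an interaction of -0.06 ± 0.47. Pcnx4, a membrane protein of the pecanex family (chromosome 12, 72536383 to 72580119), had 12.7, 4.24, 18.04 and 3.47 CPM in CD8 anti-JAML libraries, against 32.5, 24.5, 19.3 and 30.0 CPM in CD8 isotype libraries. Pcnx4 in Treg cells had 7.73, 8.30, 5.44 and 9.98 CPM after anti-JAML, against 41.1, 16.3, 38.3 and 20.2 CPM after isotype, and its groups were apart in both populations. Ssu72, a phosphatase of RNA polymerase II, had log2 fold changes of -0.50 ± 0.19 in CD8 cells and -0.54 ± 0.19 in Treg cells. Groups were apart and higher in both populations for 12 genes (0.0891%) and apart and lower in both for 10 (0.0743%).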

How the data were processed

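The authors deposited raw counts for each gene in every library; their TPM table was not used. The build was mm10 and the tools included STAR 2.7.3a and fastp 0.20.1, per the submitters' processing notes. How reads were counted, with which strand setting and annotation, is not given in the sources used here; overlapping genes and close paralogs are therefore uncertain. Gene symbols came from the table; positions came from GENCODE M21, in which 98.64% of the IDs occur. In R 4.3.3, 1 fit of edgeR 4.0.16 over 16 libraries (group means, TMM, filterByExpr at its minima of 10 for the count and 15 for the total, robust quasi-likelihood F test, two-sided) gave 4 contrasts: the interaction, both antibody effects and their mean. Benjamini-Hochberg adjustment ran over all 13466 genes, with a threshold of 0.05. CPM used TMM-scaled library sizes; list scores used a prior count of 2. A floor of 3 counts over a group covers counting error only, and amplified reads are not independent molecules. The script was tested on simulated data. Alternatives were DESeq2 1.42.0, limma 3.58.1 voom, RLE scaling, no filter, a replicate block, all 24 libraries, genes detected as a covariate and leaving out libraries.

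The 31 lists, their members and the tests were chosen with earlier results of these data known, so lists carry no test. Named genes were Jaml, Pdcd1 and, among genes with a mean of 10 CPM or more in a group and leaving out predicted and clone-named ones, the 10 with the smallest interaction p in each direction, 5 in each direction of the together and opposite classes and of the mean effect, and 2 members per list. List members beyond these were chosen to describe their list after their values were seen. Not every gene chosen is printed, and 1 list member is not reported here by name.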

Additional observations from a re-analysis of the deposited data

Results flagged for a closer look

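Samd3 was flagged because its anti-JAML log2 fold change differed between populations in the interaction test, with a fitted value of -6.524 for CD8 minus Treg (adjusted p = 0.0403 in edgeR); the Treg isotype group is at 0, so this value is no bound.

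In groups of 4 libraries, 1 library stood far from the other 3 in 12 of 132 groups examined, by Dixon's criterion. Its chance rate of about 1 in 20 groups holds for normally distributed values, which CPM need not be. Every flagged value was the highest of its group. Where the other 3 libraries are at 0, a lone count is flagged whatever its size. The number of flags is therefore not set against chance. Among the genes given above, Jaml was at 21.18 CPM in CD8 isotype library 3 (others 6.044 to 7.715), at 0.2091 CPM in Treg anti-JAML library 3 (others 0) and at 0.8165 CPM in Treg isotype library 4 (others 0). Klf2 was at 222.5 CPM in CD8 anti-JAML library 2 (others 61.14 to 75.43). Abcg1 was at 89.38 CPM in CD8 anti-JAML library 4 (others 44.01 to 47.13). Slfn1 was at 82.94 CPM in CD8 isotype library 3 (others 68.13 to 69.89). In Treg anti-JAML libraries, Fam49a was at 61.38 CPM in library 4 (others 22.77 to 27.18), Gzma at 14.94 CPM in library 4 (others 2.742 to 4.705) and Pnpla7 at 49.17 CPM in library 2 (others 25.17 to 25.72). In Treg isotype libraries, Il7r was at 263.5 CPM in library 2 (others 139.2 to 141.9), Gzma at 1.905 CPM in library 4 (others 0) and Foxp3 at 105.2 CPM in library 4 (others 58.18 to 65.42).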

How the results depend on the processing

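Counts of calls depended on the tool and on single libraries. DESeq2 called 156 genes in the interaction, 208 in CD8 cells, 111 in Treg cells and 166 in the mean effect, and limma voom 0, 2 and 5 in the first 3. Without a filter the together class held 101 genes, the opposite class 64 and the Treg-alone class 570. Libraries of the same number shared little of their deviation from the group means (r over 0.1 in 1 of 24 same-number pairs). For CD8 and Treg libraries 1 to 4 of the same number, r was -0.0642, 0.102, 0.0605 and 0.0703 after anti-JAML. After isotype it was -0.00211, -0.000369, 0.00234 and 0.033. Low values do not show that such libraries came from separate mice, and no fit paired them within an antibody. The replicate block, by number across all groups, gave 0 interaction calls, 16 opposite genes and 182 Treg-alone genes. With all 24 libraries there were 0 interaction, 6 Treg and 0 mean-effect calls, and 80 together, 66 opposite and 455 Treg-alone genes. With genes detected as a covariate there were 0 interaction calls, 2 mean-effect calls and 19 opposite genes. Without CD8 anti-JAML libraries 2 and 4 there were 0 interaction calls, 28 together and 233 CD8-alone genes. Leaving out 1 library at a time gave 0 to 7 interaction calls (7 without Treg isotype library 4), 0 to 1 in CD8 cells, 1 to 11 in Treg cells, 1 to 9 in the mean effect, 34 to 106 together, 29 to 60 opposite, 339 to 555 CD8-alone and 298 to 584 Treg-alone genes. The interaction changed sign for Jaml (-1.376 to 6.28 over the left-out libraries, the lowest without Treg isotype library 4), mt-Cytb (-0.3801), mt-Co1 (-0.2201) and Cd79b (-0.5701) with the covariate, Lyz2 (-0.5947 to 6.353, the lowest without CD8 anti-JAML library 2; -0.01494 without 2 and 4), C1qa (-1.94 to 9.869, the lowest without CD8 anti-JAML library 1), Pecam1 (-0.177 to 1.24, the lowest without CD8 anti-JAML library 2; -0.0847 without 2 and 4), Klrb1c (0.7243 with voom) and Hba-a2 (-10.88 to 0.7249, the highest without CD8 isotype library 3); the cause was not tested. Of 2278 named-gene values, 2199 kept direction and side of the threshold, 48 passed it and 20 lost it. The median interaction kept its sign in all 24 alternatives for naive, memory and stem-like (0.9019 to 1.91), proliferation (-0.8929 to -0.4636), glycolysis (-0.6788 to -0.3577) and type I interferon genes (0.5962 to 0.8243). At 4 libraries per group, and with many genes at 0 in a whole group, fold changes of low genes are limited by depth.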

Other observations

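Erythroid genes were read at high levels in some libraries only. Haemoglobin beta Hbb-bs had 541 CPM in Treg anti-JAML library 4 and 5.07 CPM in library 2, against 0 in all 4 Treg isotype libraries, and 249 and 113 CPM in CD8 anti-JAML libraries 2 and 4, against 129.7 CPM in CD8 isotype library 3 and 0 in the other 3. The summed level of the 6 erythroid markers was 0.305 to 502 CPM in CD8 anti-JAML and 0 to 266 CPM in CD8 isotype libraries, and 0.623 to 1418 CPM in Treg anti-JAML and 0 to 1.09 CPM in Treg isotype libraries. Spp1, which is not one of these markers, encodes the secreted protein osteopontin. It had 7.60, 2.71, 6.22 and 0 CPM in Treg anti-JAML libraries, against 52.4, 65.0, 37.9 and 101 CPM in Treg isotype libraries. The Treg groups did not overlap for Spp1, with a log2 fold change of -3.95 ± 0.88 (SE; adjusted p = 0.436), while the CD8 groups overlapped at 320.3 ± 315 CPM after anti-JAML and 608 ± 423 CPM after isotype (SD, n = 4 each).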
